A study of Mus musculus with 68 samples.

Results

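INO80 complex subunits and the transcription factor YY1 were followed as 10 genes chosen by name: Ino80, Ino80b, Ino80c, Ino80e, Actr5, Actr8, Ruvbl1, Ruvbl2, Nfrkb and Yy1. They were 10 of the 24421 reference gene symbols listed in every library, each with 1 row per library in the deposited tables. The measurement was messenger RNA as TPM, the standard unit for the share of a library's transcripts that a gene accounts for after division by transcript length. All 10 genes had a mean of at least 1 TPM in each set of libraries fitted, so none was left out by the filter on low values.

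INO80 is a chromatin remodelling complex that uses ATP to slide and space nucleosomes and that has been tied to the turnover of the histone variant H2A.Z. The INO80 protein is the motor and scaffold. RUVBL1 and RUVBL2 are related ATPases that form a joint ring in the complex and also serve the SRCAP, TIP60-p400 and R2TP complexes, ACTR5 and ACTR8 are actin-related proteins that couple the motor to the nucleosome and to DNA, and INO80B, INO80C, INO80E and NFRKB are accessory subunits. YY1 is a zinc-finger factor that binds DNA and associates with the mammalian complex. In mouse embryos INO80 is known for its part in keeping pluripotency genes accessible, and embryos without YY1 die around implantation.

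The 68 libraries came from cumulus cells (CC), somatic cell nuclear transfer (SCNT) embryos and fertilized embryos. The 3 CC libraries and the 53 SCNT libraries were labelled untreated. Cumulus nuclei of BDF1 mice, the hybrid of C57BL/6j females and DBA/2 males, were injected into enucleated oocytes of the same hybrid from females 8 to 10 weeks old, and the embryos were activated with SrCl2 in the presence of cytochalasin B. SCNT embryos were collected at 6 and 14 hours post activation (hpa), at the early and late 2-cell stages (E2C and L2C), with 4 and with 8 cells (4C and 8C), as morulae, and as the ICM (inner cell mass) and the TE (trophectoderm) of blastocysts, with 6 libraries per group and 5 at 4C. The fertilized embryos, C57BL/6j on both sides, had received a morpholino (MO), an antisense oligomer, and were sampled as ICM and TE with 2 libraries per group: control MO (1 mM), Max MO (0.3 mM) and Mcrs1 MO (0.2 mM). The control libraries carry both control and untreated in their labels and are taken here as the random control MO of the treatment protocol, so every MO change is measured against libraries whose injection the labels leave uncertain. MAX is the partner of MYC factors at E-boxes, and MCRS1 is itself an INO80 subunit. Each embryo library was made from 10 blastomeres. The study calls replicates of SCNT and MO embryos biological, while the labels name no separate batches of embryos. The p-values therefore measure the spread between these libraries.

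Aligned sequence, estimated from other columns of the deposited data, ranged from 1.00 to 5.15 Gb per library. The number of genes at 1 TPM or more ranged from 6177 to 11771. CC libraries held 1601 to 2797 TPM of cumulus markers summed over 7 genes, with Amh at 0, and libraries at 6 hpa held 4194 to 8159 TPM of oocyte markers. Several libraries stood apart from their groups. SCNT ICM replicates 1 to 3 had 6177 to 6771 genes at 1 TPM or more against 9011 to 10032 in replicates 4 to 6, and many genes separated replicates 1 to 3 from 4 to 6 at every SCNT stage, although the labels name no batch. The library labelled control MO ICM replicate 1 held 16011 TPM of the 6 TE markers, close to the 18382 and 20547 TPM of the control MO TE libraries, against 354 TPM in replicate 2. SCNT ICM libraries also held TE markers (1932 to 8403 TPM, against 5129 to 16075 TPM in SCNT TE), so ICM and TE of SCNT embryos overlapped in this list. Calls of the 10 genes that rest on control MO ICM replicate 1, and SCNT calls lost within either set of replicates, are given with and without those libraries.

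Promoter sequences of the INO80 genes were read from RefSeq (build GRCm38.p6, which is mm10, the build of the deposited tables), as the 250 bases before the annotated start, 5′ to 3′ on the gene's strand. Entries were found for 7 of the 10 genes and not for Ino80c, Actr5 and Actr8. The 4 shown belong to the genes that the results below turn on, the paired ATPases Ruvbl1 and Ruvbl2, the accessory subunit whose level ran highest, Ino80e, and the motor Ino80. Capitals mark matches on either strand to CCAAT (bound by NF-Y), GGGCGGGG (bound by SP and KLF factors), AANATGGC (bound by YY1) and CACGTG (the E-box bound by MYC and MAX). No pair of these motifs shares letters in the sequences shown.
Ruvbl1, chr6:88465159-88465408, plus strand: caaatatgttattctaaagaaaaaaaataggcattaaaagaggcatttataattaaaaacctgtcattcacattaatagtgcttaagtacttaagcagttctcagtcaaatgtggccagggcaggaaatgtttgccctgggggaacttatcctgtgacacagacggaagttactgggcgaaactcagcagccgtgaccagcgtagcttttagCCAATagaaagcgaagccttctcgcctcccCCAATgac
Ruvbl2, chr7:45434465-45434714, minus strand: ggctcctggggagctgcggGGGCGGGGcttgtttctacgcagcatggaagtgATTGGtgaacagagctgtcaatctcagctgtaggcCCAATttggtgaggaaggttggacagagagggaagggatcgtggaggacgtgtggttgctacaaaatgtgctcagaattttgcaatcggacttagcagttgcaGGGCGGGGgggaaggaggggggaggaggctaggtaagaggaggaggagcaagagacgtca
Ino80e, chr7:126862373-126862622, minus strand: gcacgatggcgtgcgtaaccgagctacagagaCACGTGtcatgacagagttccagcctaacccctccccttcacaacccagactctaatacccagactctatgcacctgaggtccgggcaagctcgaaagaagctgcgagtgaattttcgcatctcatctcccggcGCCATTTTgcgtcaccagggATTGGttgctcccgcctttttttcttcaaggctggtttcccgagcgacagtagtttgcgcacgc
Ino80, chr2:119477688-119477937, minus strand: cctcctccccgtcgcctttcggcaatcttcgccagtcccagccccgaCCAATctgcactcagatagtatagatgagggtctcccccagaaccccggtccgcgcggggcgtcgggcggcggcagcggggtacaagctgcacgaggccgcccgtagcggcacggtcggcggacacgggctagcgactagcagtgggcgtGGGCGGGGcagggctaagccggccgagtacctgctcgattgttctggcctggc
CCAAT was present in 5 of the 7 genes (Ino80, Ino80e, Nfrkb, Ruvbl1 and Ruvbl2) and in 33.8% of all 32851 promoters of that length. A gene was counted where any of its windows matched, whereas the share is per promoter, so the units differ. GGGCGGGG was present in Ino80, Ruvbl2 and Yy1 and in 16.1% of all promoters. AANATGGC was present in Ino80b and Ino80e against 3.91% of all promoters, and CACGTG in Ino80e alone of the 7 against 6.02%. CCGGAAG, an ETS site, was found in Ino80b (6.91% of all promoters), and the 10-base palindrome of NRF1 in none of the 7 (0.782%). Ino80e has a further RefSeq start whose window, chr7:126861464-126861713, held no match to any of the 6 motifs, and the deposited Ino80e row ended at that start.

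Across SCNT development the genes did not move as a unit. In each comparison a gene was called when its Benjamini-Hochberg adjusted p from limma, over all genes tested, was under 0.05 and its change was at least 2-fold on the log2(TPM + 1) scale. The share of all genes called in the same comparison is given beside each count as background. Between CC and 6 hpa, 6 of the 10 genes were called (61.4% of all 12084 genes), 1 higher (25.8%) and 5 lower (35.6%). Embryos at 6 hpa are oocytes that hold a cumulus nucleus, and their oocyte markers summed to 4194 to 8159 TPM, against 0.0158 to 2.25 TPM in CC. A change of donor transcripts thus cannot be told apart from the difference between cumulus and oocyte RNA. From 6 to 14 hpa 1 was called (11.1% of all 11867 genes), 0 higher (6.14%) and 1 lower (4.94%). From 14 hpa to E2C 0 were called (5.83%, 2.78% higher and 3.05% lower), and 0 of the 10 had an unadjusted p below 0.05. From E2C to L2C 6 were called (34.9%), 6 higher (23.7%) and 0 lower (11.2%). From L2C to 4C 2 were called (38.4%), 2 higher (11.8%) and 0 lower (26.6%). From 4C to 8C 3 were called (19.8%), 2 higher (11.5%) and 1 lower (8.23%).

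From 8C to morula 0 were called (12.2%, 8.74% higher and 3.48% lower), with 3 of the 10 at an unadjusted p below 0.05. From morula to ICM 3 were called (24%), 0 higher (8.96%) and 3 lower (15%). From morula to TE 2 were called (21.8%), 0 higher (11%) and 2 lower (10.8%). Between ICM and TE 0 were called (5.34%, 3.87% higher and 1.47% lower in TE), with 1 at an unadjusted p below 0.05. Between CC and SCNT ICM 3 were called (37.9%), 3 higher (16.9%) and 0 lower (21%). Neighbouring comparisons share libraries and are not independent. In this material fewer cells expressing a gene and less RNA per cell cannot be told apart.

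**Figure D1:**
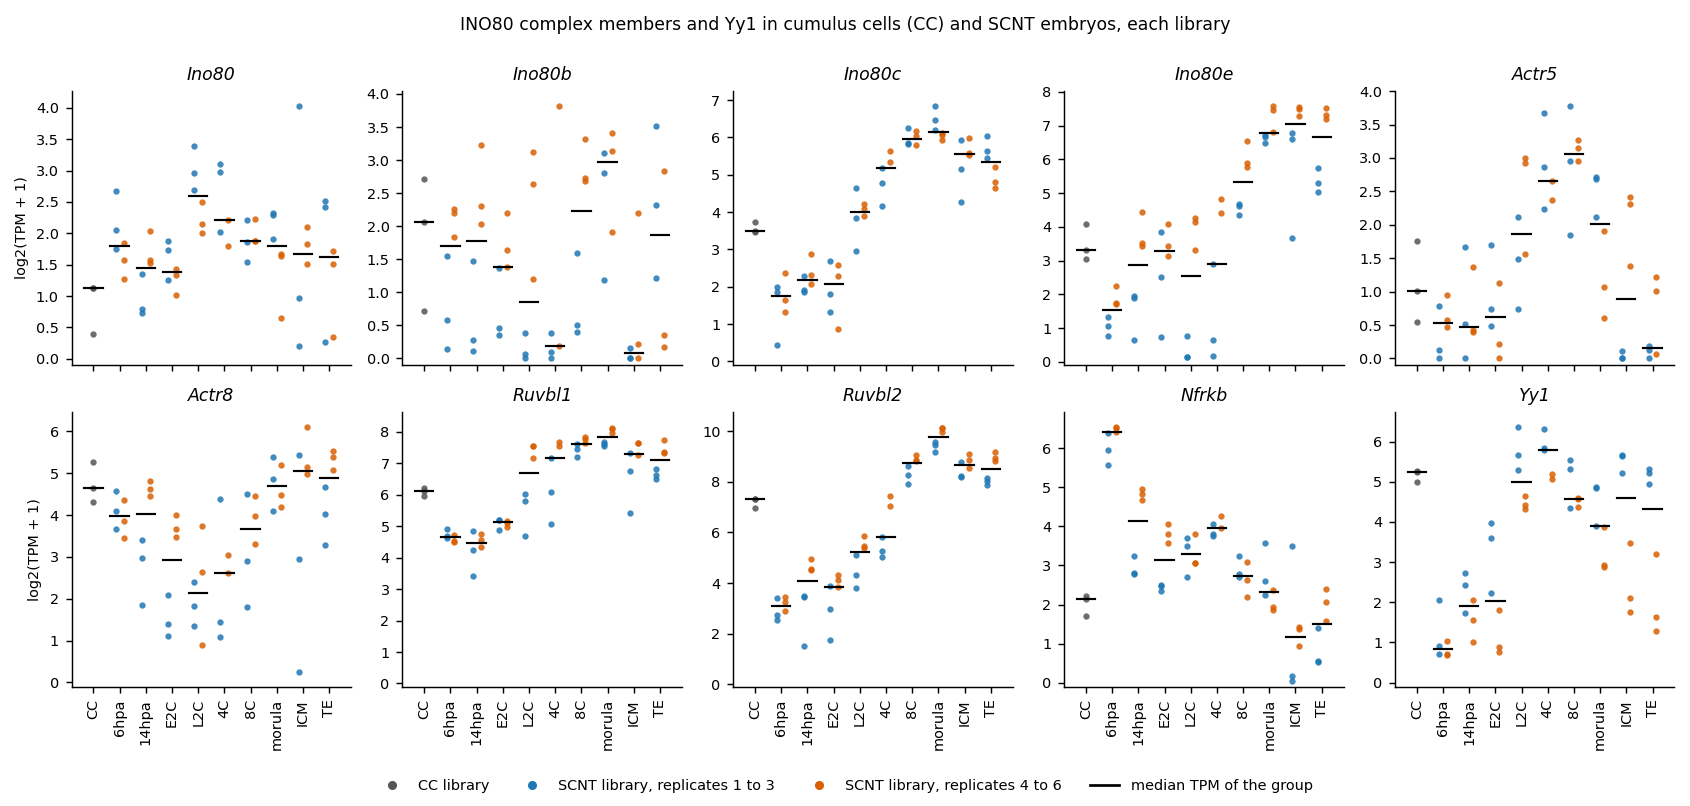
TPM of the 10 genes on the log2(TPM + 1) scale (vertical axis) in CC and the 9 SCNT groups (horizontal axis), 1 panel per gene. Each point is a library, grey for CC, blue for SCNT replicates 1 to 3 and orange for 4 to 6, and each bar is a group median. By median, Nfrkb was highest at 6 hpa, Yy1 at 4C, and Ruvbl1, Ruvbl2 and Ino80c in morulae.

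These counts moved when single libraries were left out. Shares of all genes called in those fits are not given here. The count from 6 to 14 hpa was 2 without 14 hpa replicate 1. From L2C to 4C it was 1 without L2C replicate 1 or 4C replicate 4 and 0 without L2C replicate 2 or 4C replicate 5. From 4C to 8C it was 1 without 4C replicate 1 and 5 without 4C replicate 4. From 8C to morula it was 1 without 8C replicate 2 or morula replicate 2, and 2 without morula replicate 3. From morula to ICM it was 1 without ICM replicate 1 or morula replicate 2. Against CC, the ICM count was 6 without ICM replicate 3.

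Scaling also mattered for the whole table. The median change of all genes was 0.26 on the log2 scale from E2C to L2C and -0.33 from L2C to 4C. It was 0.55 and -0.54 when the reference genes of each library were rescaled to a common total, and 3785 genes were then called as higher and 1013 as lower at L2C, against 2812 and 1329 as deposited. Quantile normalization gave 2307 and 2486. The median change of the 10 genes was 1.21 from E2C to L2C and 0.49 from L2C to 4C as deposited. Reference genes made up 30.4% to 90.9% of TPM over the 53 SCNT libraries. At L2C the percentage was 30.4% to 61.8%. At 4C it was 44.0%, 52.3% and 53.1% in replicates 1 to 3 and 75.6% and 73.5% in replicates 4 and 5. The part of this percentage in the stage levels was not tested beyond the rescaled fit.

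The motor gene Ino80 (chr2:119373042-119477629, minus strand) was among the least abundant of the 10 in SCNT embryos. In CC its levels were 1.19, 1.18 and 0.322 TPM. At E2C they ran from 1.03 to 2.69 TPM with a median of 1.61, and at L2C from 3.01 to 9.49 TPM with a median of 5.03, so the ranges did not overlap. Ino80 rose by a log2 change of 1.17 (SE 0.40, adjusted p = 0.018), and this was the only step of the series at which it was called. Without L2C replicate 2 the change was 1.01 (adjusted p = 0.056), and within replicates 1 to 3 and 4 to 6 alone it was 1.39 and 0.95, neither called. The call was also lost with a pseudocount of 0.1, with quantile normalization and with the trend on length removed (adjusted p from 0.056 to 0.092). Against CC, Ino80 at 6 hpa differed by 0.98 (adjusted p = 0.076) as deposited and by 1.32 (adjusted p = 0.0075) with quantile normalization. Medians then ran from 3.63 TPM at 4C down to 2.07 TPM in TE with overlapping ranges.

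Ruvbl1 (chr6:88465423-88497566, plus strand) and Ruvbl2 (chr7:45421898-45434464, minus strand), the ring ATPases, were together the most abundant of the 10 in most groups and took different paths. In CC, Ruvbl1 stood at 73.1, 68.7 and 61.2 TPM and Ruvbl2 at 158, 160.4 and 123 TPM. At 6 hpa Ruvbl1 ranged from 21.7 to 28.8 TPM (median 24.4) and Ruvbl2 from 4.83 to 9.80 TPM (median 7.43). Neither gene overlapped its CC range. Compared with CC, Ruvbl1 was lower at 6 hpa by 1.43 on the log2 scale (SE 0.44, adjusted p = 0.0041) and Ruvbl2 by 4.16 (SE 0.50, adjusted p = 2.9e-10). With the trend of log2 change on transcript length taken out, the Ruvbl1 change was -0.55 (adjusted p = 0.28) and the Ruvbl2 call was kept.

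Both ATPase genes rose from E2C to L2C. Ruvbl1 ranged from 28.8 to 35.8 TPM (median 34.2) at E2C and from 24.8 to 187 TPM (median 103) at L2C, a log2 change of 1.37 (SE 0.37, adjusted p = 0.0023). The L2C libraries were divided: replicates 1 to 3 held 24.8, 54.7 and 63.7 TPM and replicates 4 to 6 held 187, 187 and 142 TPM. The Ruvbl1 change was 0.41 (adjusted p = 0.61) within replicates 1 to 3 and 2.34 (adjusted p = 4.1e-11) within replicates 4 to 6. Ruvbl2 ranged from 2.39 to 18.8 TPM (median 13.5) at E2C and from 13 to 56.4 TPM (median 36.9) at L2C, a log2 change of 1.5 (SE 0.42, adjusted p = 0.0033), and was called within replicates 1 to 3 (1.53) and 4 to 6 (1.47).

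Ruvbl2 went on rising after the 2-cell stage. Its 4C levels were 37.8, 56.2, 31.3, 174 and 131 TPM, a log2 change of 1.15 from L2C (SE 0.44, adjusted p = 0.032). That call was lost without L2C replicate 1 (1.01, adjusted p = 0.073) or 2 (0.91, adjusted p = 0.10), or 4C replicate 4 (0.81, adjusted p = 0.16) or 5 (0.91, adjusted p = 0.12). It was lost as well with no filter on low values, with rescaling, in a fit of the 2 groups alone and within replicates 1 to 3 (0.97, adjusted p = 0.17). At 8C Ruvbl2 ranged from 241 to 539 TPM (median 429), above all 4C libraries, a log2 change of 2.48 (SE 0.44, adjusted p = 3.9e-05) that was kept in every alternative fit. At the morula stage it ranged from 585 to 1139 TPM (median 884), above all 8C libraries, with a log2 change of 1.15 (SE 0.42) whose adjusted p was 0.060. That change was called with the replicate number as a block (adjusted p = 0.0040), with replicates 4 to 6 against 1 to 3 as a covariate (adjusted p = 0.0053) and without morula replicate 3 (1.26, adjusted p = 0.048).

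In blastocysts Ruvbl2 was lower than in morulae. It ranged from 294 to 552 TPM (median 407) in ICM and from 236 to 585 TPM (median 368) in TE. The ICM range lay below the morula range and the TE range touched it. The log2 change from morula was -1.12 in ICM (SE 0.42, adjusted p = 0.040) and -1.24 in TE (SE 0.42, adjusted p = 0.023). The ICM call was lost without ICM replicate 1, 3 or 4 or morula replicate 2, 4, 5 or 6, with adjusted p from 0.051 to 0.080, and the TE call without morula replicate 4 or 6 or TE replicate 1 or 2, with adjusted p from 0.051 to 0.061. The ICM call was also lost with a pseudocount of 0.1, with no filter, with quantile normalization and with the trend on length removed (-1.13 to -0.83), both calls were lost within replicates 1 to 3 (-0.99 in ICM and -1.38 in TE), and the TE call with the trend on length removed (-1.08, adjusted p = 0.054). Ruvbl1 medians were 197 TPM at 8C, 229 TPM at morula, 156 TPM in ICM and 136 TPM in TE, and none of these steps was called (adjusted p from 0.089 to 0.74). The Ruvbl1 change from 4C to 8C was 0.87 (adjusted p = 0.10) and was called without 4C replicate 4 (1.11, adjusted p = 0.039) or 5 (1.08, adjusted p = 0.048). Against CC, Ruvbl2 was higher in ICM by a log2 change of 1.42 (SE 0.50, adjusted p = 0.020), which became 1.30 (adjusted p = 0.084) without CC replicate 3 and 0.93, under 2-fold, with the replicate number as a block, and the Ruvbl1 change of 0.92 (adjusted p = 0.097) became 1.24 (adjusted p = 0.017) without ICM replicate 3.

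The balance of the paired ATPases therefore differed between groups. The ratio of Ruvbl2 to Ruvbl1 TPM, both already divided by transcript length, was 2.02 to 2.34 in CC (median 2.16) and 0.202 to 0.386 at 6 hpa (median 0.317). Medians were 0.956 at 14 hpa, 0.389 at E2C, 0.294 at L2C and 0.698 at 4C, with ranges that overlapped. The ratio was 1.39 to 2.35 at 8C (median 2.10) and 3.13 to 4.5 at morula (median 3.75), with no overlap between these stages. In ICM and TE the medians were 2.61 and 2.63, and the highest single ratio, 7.18, belonged to ICM replicate 3, which had 42.0 TPM of Ruvbl1 against 108 to 200.2 TPM in the other ICM libraries. Ruvbl2 was the most abundant of the 10 genes in 3 of 3 CC libraries and in all 24 libraries of the 8C, morula, ICM and TE groups. Nfrkb held that place in 6 of 6 libraries at 6 hpa and Ruvbl1 in 6 of 6 at E2C. The ratio is a description, with no test.

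**Figure D2:**
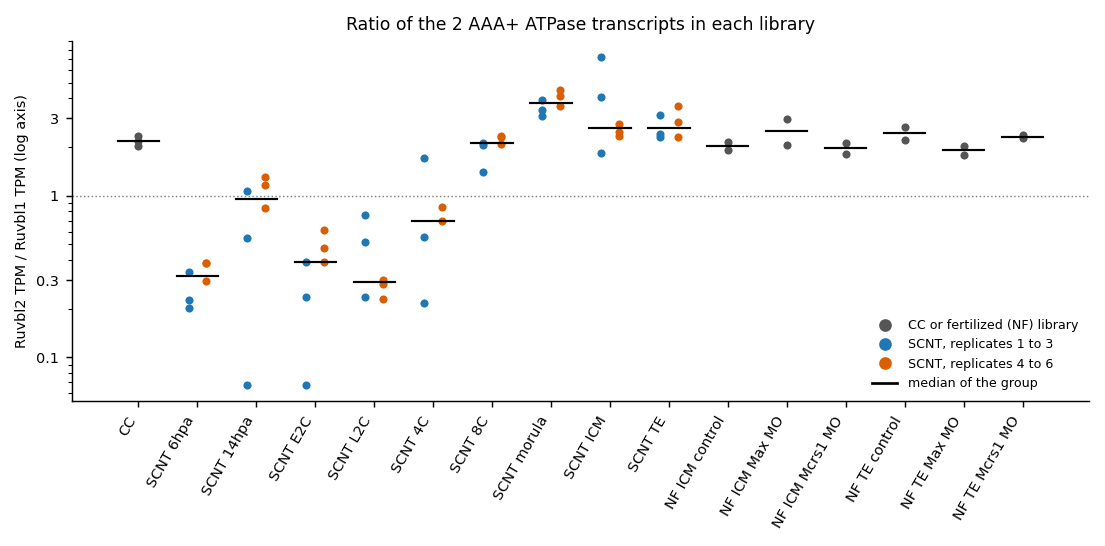
Ratio of Ruvbl2 to Ruvbl1 TPM (vertical axis, log scale) in each library by group (horizontal axis). Points are libraries and bars are medians, and colours set SCNT replicates 1 to 3 (blue) apart from 4 to 6 (orange). The ratio was at most 0.386 in the 6 libraries at 6 hpa and at least 3.13 in the 6 morula libraries.

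Ruvbl2 shares 310 exon bases with Gys1 and 138 with Lhb on the opposite strand, and Ino80e shares 1103 exon bases with Doc2a and 150 with Hirip3. The library kit does not mark strand, so reads from these stretches cannot be assigned to one gene, and how far they entered the values was not tested. Actr8 shares 141 exon bases with Il17rb, Ino80b shares 91 with Gm44287 and Actr5 shares 8 with Mir3474.

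Ino80c (chr18:24104761-24121819, minus strand), an accessory subunit, followed the ATPases closely. It stood at 10.1, 10.3 and 12.2 TPM in CC and at 0.346 to 4.18 TPM (median 2.38) at 6 hpa, with no overlap. Ino80c was lower at 6 hpa by 1.96 on the log2 scale (SE 0.39, adjusted p = 1.8e-05). It rose from 0.83 to 5.44 TPM (median 3.20) at E2C to 6.79 to 23.8 TPM (median 14.9) at L2C, a log2 change of 2.01 (SE 0.33, adjusted p = 1.8e-06). Both of these calls were kept in every alternative fit. The rise went on to 26.4, 17.1, 35.2, 39.4 and 48.4 TPM at 4C, a log2 change of 1.08 (SE 0.34, adjusted p = 0.0085). Without L2C replicate 2 or 4C replicate 5 that change was 0.89 or 0.93, under 2-fold, as it was with rescaling (0.91) and within replicates 1 to 3 (0.90, adjusted p = 0.21). The 8C range, 55.0 to 75.3 TPM, lay above the 4C range with a log2 change of 0.97 (adjusted p = 0.035), just under 2-fold, and it passed 2-fold without 4C replicate 3, 4 or 5 or 8C replicate 1 or 5 (1.0 to 1.12). From morula to TE the Ino80c change was -0.97 (adjusted p = 0.023), and it passed 2-fold without TE replicate 1, 2 or 3 or morula replicate 4, 5 or 6 (-1.12 to -1.0). Ino80c was higher in ICM than in CC by a log2 change of 1.84 (SE 0.39, adjusted p = 1.1e-04).

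Ino80e (chr7:126852433-126861463, minus strand), another accessory subunit, was called as rising from 4C to 8C. It ranged from 0.113 to 27.6 TPM over the 5 libraries at 4C (0.113, 6.41, 0.552, 20.3 and 27.6 TPM) and from 19.6 to 91.7 TPM (median 39.0) at 8C, a log2 change of 2.72 (SE 0.77, adjusted p = 0.0078). Without 4C replicate 1 the change was 2.12 (adjusted p = 0.061). Replicates 4 to 6 had risen before that stage, from 2.24 to 3.70 TPM at 6 hpa to 9.77 to 20.5 TPM at 14 hpa (1.90, adjusted p = 7.3e-05), and held 8.97 to 18.3 TPM at L2C, where replicates 1 to 3 held 0.0922 to 0.687 TPM. Within replicates 1 to 3 the step from 6 to 14 hpa was 0.45 (adjusted p = 0.95). Morulae held 88.6 to 191 TPM (median 108), and the step from 8C, a log2 change of 1.64 (SE 0.73), had an adjusted p of 0.13. With replicates 4 to 6 against 1 to 3 as a covariate the same change had an adjusted p of 0.013. Against CC, with 15.9, 9.04 and 7.34 TPM, Ino80e was higher in ICM by a log2 change of 3.08 (SE 0.88, adjusted p = 0.0039) in every alternative fit. At 6 hpa it was lower than in CC, with a log2 change of -2.02 (SE 0.88, adjusted p = 0.042), and this call was lost without any of the CC replicates or 6 hpa replicate 1, 2 or 3 (adjusted p from 0.056 to 0.15). It was also lost in 5 of 8 alternatives, with adjusted p of 0.058 with rescaling, 0.060 with a pseudocount of 0.1, 0.073 with no filter, 0.079 with quantile normalization and 0.18 with the trend on length removed (-1.35).

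Ino80b (chr6:83121828-83125029, minus strand) was scarce and uneven. Of all 68 libraries 27 had under 1 TPM and 5 were listed at 0. It ranged from 1.28 to 9.64 TPM (median 6.81) in morulae and from 0 to 3.59 TPM (median 0.0603) in ICM, where 5 of 6 libraries were under 1 TPM. Ino80b fell by 2.16 on the log2 scale from morula to ICM (SE 0.63, adjusted p = 0.0081), a call kept in every alternative fit. In TE it ranged from 0.123 to 10.4 TPM (median 2.66) and was not called against morula (-0.86, adjusted p = 0.37) or ICM (1.30, adjusted p = 0.26).

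The actin-related proteins differed from each other. Actr5 (chr2:158624913-158639211, plus strand) was under 1 TPM in 6 of 6 libraries at 6 hpa. It rose from 0 to 2.25 TPM (median 0.529) at E2C to 0.671 to 7.01 TPM (median 2.64) at L2C, a log2 change of 1.26 (SE 0.42, adjusted p = 0.014), with overlapping ranges. Without L2C replicate 4 the change was 1.05 (adjusted p = 0.0502). It was 0.48 (adjusted p = 0.58) within replicates 1 to 3 and 2.04 (adjusted p = 4.8e-04) within replicates 4 to 6, 0.77 (adjusted p = 0.091) with quantile normalization and 0.99 (adjusted p = 0.060) with the trend on length removed. It was 2.61 to 12.7 TPM (median 7.31) at 8C and 0.520 to 5.54 TPM (median 3.04) in morulae, and 0 to 1.34 TPM (median 0.113) in TE, a log2 change of -1.41 from morula (SE 0.42, adjusted p = 0.0099) that was -0.43 (adjusted p = 0.51) within replicates 4 to 6. The step from 8C to morula was -1.15 (adjusted p = 0.062), and it was called without 8C replicate 2 (-1.37) or without morula replicate 2 (-1.32) or 3 (-1.31). From L2C to 4C Actr5 was called within replicates 1 to 3 (1.47, adjusted p = 0.040) and not within 4 to 6 (0.02, adjusted p = 0.99). From morula to ICM the sets had opposite signs, -2.46 and called in replicates 1 to 3 (adjusted p = 0.001) and 0.84 in replicates 4 to 6 (adjusted p = 0.15).

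Actr8 (chr14:29978337-29993221, plus strand) was called in none of the comparisons over all replicates. Its medians were 24.2 TPM in CC, 14.9 TPM at 6 hpa, 15.3 TPM at 14 hpa, 6.65 TPM at E2C, 3.41 TPM at L2C, 5.16 TPM at 4C, 11.8 TPM at 8C, 24.7 TPM at morula, 32.5 TPM in ICM and 28.8 TPM in TE. Neighbouring ranges overlapped at every step. The interval of the log2 change from E2C to L2C was -1.79 to 0.84, so changes of more than 2-fold remain within it. Within replicates 4 to 6 that change was -1.29 and called (adjusted p = 0.031), and within replicates 1 to 3 it was 0.33 (adjusted p = 0.86). From morula to ICM the sets also had opposite signs, -1.90 (adjusted p = 0.14) in replicates 1 to 3 and 0.79 (adjusted p = 0.22) in replicates 4 to 6.

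Nfrkb (chr9:31386192-31421334, plus strand), a metazoan accessory subunit, ran opposite to the ATPases at the start. It stood at 3.63, 3.38 and 2.29 TPM in CC and at 46.6 to 91.6 TPM (median 83.8) at 6 hpa, with no overlap. Nfrkb was higher at 6 hpa by a log2 change of 4.21 (SE 0.51, adjusted p = 3.7e-10). It then fell by 2.35 on the log2 scale to 5.85 to 29.8 TPM (median 16.5) at 14 hpa (SE 0.43, adjusted p = 4.9e-05). Both calls were kept in every alternative fit, and the 14 hpa range lay below the 6 hpa range. The summed oocyte markers stood at 4194 to 8159 TPM at 6 hpa and at 1530 to 4806 TPM at 14 hpa, and their part in the Nfrkb values was not tested.

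Later steps of Nfrkb were smaller. Its 4C levels were 13, 15.7, 12.6, 18.1 and 14.5 TPM and its 8C levels 3.53 to 8.47 TPM (median 5.68), with no overlap, and it fell by 1.2 on the log2 scale (SE 0.45, adjusted p = 0.048). This call was lost without any 1 of 10 of the 11 libraries, all but 8C replicate 3 (adjusted p from 0.054 to 0.11). It was also lost with a pseudocount of 0.1, with no filter, with the trend on length removed and within replicates 1 to 3 (-0.97, adjusted p = 0.33). From morula (2.61 to 11.0 TPM) to ICM (0.0267 to 10.4 TPM) it fell by 1.19 (SE 0.43, adjusted p = 0.032), a call lost without ICM replicate 1, 2 or 5 or morula replicate 2 or 3 (adjusted p from 0.055 to 0.11). That call was also lost with no filter, with quantile normalization (-0.74, adjusted p = 0.14), with the trend on length removed, in a fit of the 2 groups alone, and within replicates 1 to 3 (-1.57, adjusted p = 0.061) and 4 to 6 (-0.80, under 2-fold). TE, at 0.446 to 4.26 TPM, differed from morula by -1.01 (adjusted p = 0.078), and was called without TE replicate 4 (-1.21, adjusted p = 0.041).

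Yy1 (chr12:108793311-108816632, plus strand), the DNA-binding partner, was low at 6 hpa and rose at the L2C stage. It stood at 30.7, 36.7 and 37.3 TPM in CC and at 0.599 to 3.14 TPM (median 0.770) at 6 hpa, where 4 of 6 libraries were under 1 TPM. Yy1 was lower at 6 hpa by a log2 change of -4.14 (SE 0.74, adjusted p = 2.8e-06). From 0.701 to 14.8 TPM (median 3.09) at E2C it rose to 19.1 to 80.7 TPM (median 31.0) at L2C, above all E2C libraries, a log2 change of 2.91 (SE 0.62, adjusted p = 1.4e-04). Both Yy1 calls were kept in every alternative fit, and the L2C change was 2.5 within replicates 1 to 3 and 3.31 within replicates 4 to 6. At 4C the levels were 78.4, 56.1, 54.0, 32.6 and 35.4 TPM, and the change from L2C was not called (0.52, adjusted p = 0.56).

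**Figure D3:**
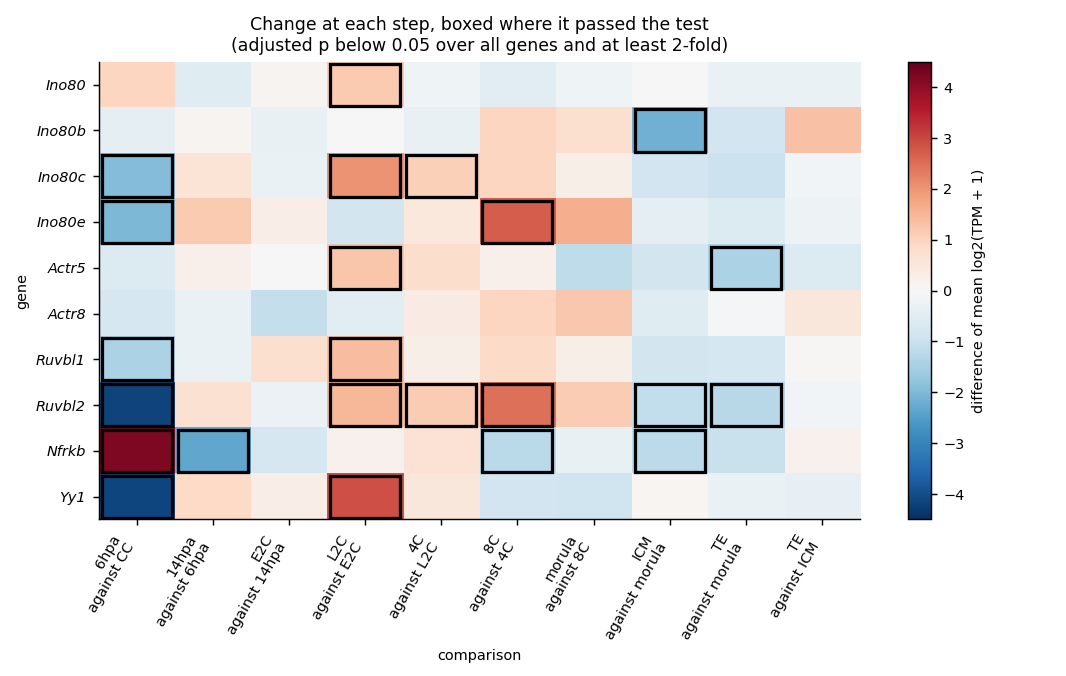
Difference of mean log2(TPM + 1) for each of the 10 genes (vertical axis) in each of 10 comparisons (horizontal axis), in colour from blue (lower) to red (higher). Black boxes mark changes with a limma adjusted p below 0.05 and at least 2-fold. The change of Ruvbl2 was -4.16 from CC to 6 hpa and 2.48 from 4C to 8C, where Nfrkb had 4.21 and -1.2.

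Yy1 was also divided by replicate number in blastocysts. In ICM, replicates 1 to 3 held 49.7, 49.1 and 36 TPM and replicates 4 to 6 held 2.36, 10.2 and 3.28 TPM. In TE, replicates 1 to 3 held 39.0, 29.8 and 36.2 TPM and replicates 4 to 6 held 8.28, 2.10 and 1.45 TPM. Replicates 1 to 3 were all above 4 to 6 at 6 of the 9 SCNT stages, and the reverse was true at none. Ino80e went the other way, with replicates 4 to 6 all above 1 to 3 at 8 of 9 stages, as did Ruvbl2 at 6, Ruvbl1 and Ino80b at 5, Nfrkb at 4 and Actr8 at 3. Over all 11867 genes tested, the share with no overlap between replicates 1 to 3 and 4 to 6 was 24.8% to 52.5% by stage. Replicates 1 to 3 were the higher set for 4.30% to 19.7% of all genes and replicates 4 to 6 for 7.89% to 47.2%.

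Some later stage changes of Yy1 therefore depended on which set of replicates was used, while the rise from E2C to L2C was called in both. From 8C to morula its log2 change was -0.52 (adjusted p = 0.61) within replicates 1 to 3 and -1.28 (adjusted p = 0.045) within replicates 4 to 6. From morula to TE it was 0.62 (adjusted p = 0.44) and -1.19 (adjusted p = 0.047). The labels name no batch, day or animal that sets replicates 1 to 3 apart from 4 to 6.

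Other genes of INO80 and its neighbours, a list of 21 genes of which 20 passed the filter in the SCNT libraries (Srcap did not), were counted in the same way. At 6 hpa 5 of the 20 were called higher than in CC and 9 lower (25.8% and 35.6% of all genes). At L2C, against E2C, 6 were higher and 1 was lower (23.7% and 11.2% of all genes), at 4C 6 and 4 (11.8% and 26.6%), and at 8C 6 and 0 (11.5% and 8.23%). Those with the lowest adjusted p from E2C to L2C were Znhit1, an SRCAP subunit (2.72), H2afv and H2afz, which encode H2A.Z (2.30 and 1.52), and Zfp42, a relative of Yy1 that marks pluripotent cells (3.81). From CC to 6 hpa H2afz and Znhit1 were lower by log2 changes of -5.45 and -4.51. Mcrs1 itself rose from 4C to 8C by a log2 change of 2.70 (SE 0.76, adjusted p = 0.0073), from 1.71 to 104 TPM (median 26.2) to 50.7 to 246 TPM (median 138). Its 4C libraries were divided, with 1.71 to 26.2 TPM in replicates 1 to 3 and 69.4 and 104 TPM in replicates 4 and 5. At 8C, replicates 1 to 3 held 50.7 to 140 TPM and replicates 4 to 6 held 127 to 246 TPM. From 6 to 14 hpa 0 of the 20 were called (11.1% of all genes), and from 14 hpa to E2C 1 was higher (H2afz, 1.28, against 2.78%). From 8C to morula 1 was higher and 2 were lower (8.74% and 3.48%). From morula to ICM 1 was higher and 3 were lower (8.96% and 15%), and from morula to TE 0 and 2 (11% and 10.8%). Between ICM and TE 0 were called (5.34%).

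Levels of the 10 genes were compared across the 56 CC and SCNT libraries as a description. Ruvbl2 followed Ino80c (Pearson r = 0.90), Ino80e (0.87) and Ruvbl1 (0.85). Outside the list, the genes most like Ruvbl2 were Wdr18, Atg4b and Psmc1 (0.97 each), those most like Ruvbl1 were Wipi2 (0.94), Myg1 (0.93) and Rab20 (0.93), those most like Yy1 were Xpo1 (0.92), Zfx (0.89) and C1d (0.88), and those most like Ino80 were Nktr (0.70), Noc3l (0.69) and Topbp1 (0.67). The libraries share stage, so these values carry the stage pattern.

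In fertilized blastocysts the MO groups address how knockdown of Max or Mcrs1 bears on these genes. The targets were checked first. Mcrs1 was at 253 and 310.1 TPM in control MO ICM and at 86.8 and 73.4 TPM with Mcrs1 MO, a log2 change of -1.80 (SE 0.21, adjusted p = 0.0033), and at 219 and 294 TPM against 41.1 and 45.5 TPM in TE, a log2 change of -2.53 (SE 0.21, adjusted p = 8.7e-04). Max was at 38.0 and 8.42 TPM in control MO ICM and at 6.82 and 0.443 TPM with Max MO (-2.51, adjusted p = 0.040). Without control MO ICM replicate 1, the library high in TE markers, the Max change was -1.49 (adjusted p = 0.18), without Max MO ICM replicate 2 it was -1.29 (adjusted p = 0.28), and the Mcrs1 change without control MO ICM replicate 1 was -1.94 (adjusted p = 3.9e-04). The TE libraries held 34.5 and 28.5 TPM of Max with control MO and 16.3 and 8.68 TPM with Max MO (-1.32, adjusted p = 0.39). A morpholino can act on translation or splicing without lowering a transcript, so these values check the labels only in part.

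The motor gene Ino80 was lower in ICM with either MO. It was at 23.2 and 12.7 TPM in control MO ICM, at 2.58 and 0.729 TPM with Max MO and at 2.41 and 3.44 TPM with Mcrs1 MO, with no overlap. The log2 change was -2.87 with Max MO (SE 0.59, adjusted p = 0.0063) and -2.23 with Mcrs1 MO (SE 0.59, adjusted p = 0.037). Both comparisons use the same control MO libraries. Without control MO ICM replicate 1, the library high in TE markers, the values were -2.46 (adjusted p = 0.018) and -1.82 (adjusted p = 0.071). The Mcrs1 MO call was also lost without Mcrs1 MO ICM replicate 1 (-2.04, adjusted p = 0.18) or 2 (-2.42, adjusted p = 0.10), whereas the Max MO call was kept without any 1 of the 4 libraries. The Mcrs1 MO call was lost with a pseudocount of 0.1, with no filter, with quantile normalization and in a fit of the ICM libraries alone (adjusted p from 0.065 to 0.15).

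Lineage markers differed between the same ICM groups. The 6 ICM markers summed to 1383 and 1869 TPM with control MO, 1037 and 1144 TPM with Max MO and 405 and 975 TPM with Mcrs1 MO, with no marker at 0 in a whole group. The 4 primitive endoderm markers summed to 35.8 and 34.9 TPM with control MO, 264 and 76.5 TPM with Max MO and 86.2 and 80.0 TPM with Mcrs1 MO. The 6 TE markers summed to 16011 and 354 TPM with control MO, 2718 and 5828 TPM with Max MO and 11557 and 8048 TPM with Mcrs1 MO. A comparison without control MO ICM replicate 1 thus sets the library with 354 TPM against MO libraries with more of these markers. Neither the ICM nor the primitive endoderm sums of the control libraries overlapped those of the other MOs, whereas the TE sums did. The part of these markers in the Ino80 and Yy1 changes was not tested.

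Yy1 was at 12.5 and 11.6 TPM in control MO ICM and at 3.60 and 3.75 TPM with Max MO. It fell by 1.48 on the log2 scale (SE 0.43, adjusted p = 0.027). Without control MO ICM replicate 1 the change was -1.43 (adjusted p = 0.046), and without Max MO ICM replicate 1 or 2 it was -1.46 (adjusted p = 0.090) or -1.51 (adjusted p = 0.084). It was -0.89 (adjusted p = 0.16) with quantile normalization, and its adjusted p was 0.13 in a fit of the ICM libraries alone. With Mcrs1 MO, Yy1 was at 10.1 and 7.87 TPM, a log2 change of -0.40 (adjusted p = 0.57). Ino80 and Yy1 were the 2 of 10 genes called with Max MO in ICM (23.7% of all 11219 genes were called, 8.65% higher and 15.1% lower) and Ino80 the 1 called with Mcrs1 MO in ICM (10.1%, 4.88% higher and 5.21% lower).

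**Figure D4:**
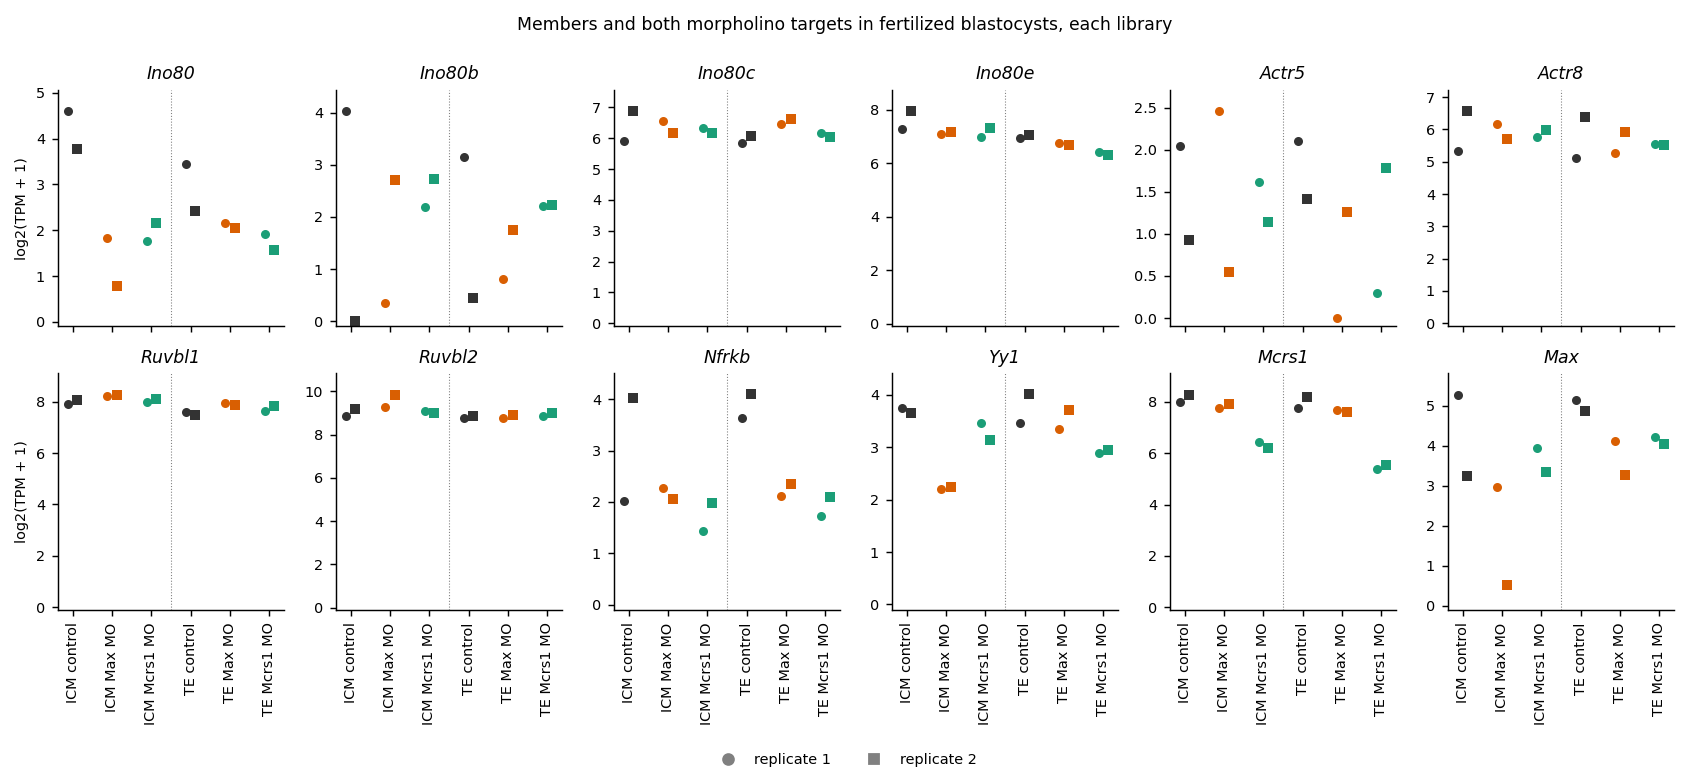
The 10 genes and the targets Mcrs1 and Max on the log2(TPM + 1) scale (vertical axis) in ICM and TE of fertilized embryos with control, Max or Mcrs1 MO (horizontal axis), 1 panel per gene. Each point is a library, a circle for replicate 1 and a square for replicate 2. Ino80 in ICM was 12.7 and 23.2 TPM with control MO and at most 3.44 TPM with either of the other MOs.

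In TE none of the 10 was called with Max MO (2.5% of all genes, 1.04% higher and 1.45% lower) or Mcrs1 MO (5.08%, 1.77% higher and 3.31% lower), while 1 and 2 of them had an unadjusted p below 0.05. Ino80 was at 9.84 and 4.37 TPM in control MO TE, at 3.45 and 3.12 TPM with Max MO (-0.83, adjusted p = 0.47) and at 2.79 and 1.98 TPM with Mcrs1 MO (-1.18, adjusted p = 0.25). The difference in response between TE and ICM was tested directly. For Ino80 it was 2.04 with Max MO (SE 0.84, unadjusted p = 0.034, adjusted p = 0.35) and 1.04 with Mcrs1 MO (SE 0.84, adjusted p = 0.74). Of the 10 genes 0 were called in either test (0% of all genes, while 1473 and 972 were below 0.05 before adjustment), so a response particular to ICM was not shown. Between control MO TE and ICM 0 of the 10 were called (2.92% of all genes, 1.2% higher and 1.72% lower in TE), while 2 were below 0.05 before adjustment.

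Nfrkb showed how much 1 library weighs with 2 per group. It was at 3.07 and 15.4 TPM in control MO ICM and at 11.5 and 16.1 TPM in control MO TE, and at 1.69 to 4.12 TPM in all 8 libraries with Max or Mcrs1 MO. Its log2 change in ICM was -0.87 with Max MO (adjusted p = 0.35) and -1.32 with Mcrs1 MO (adjusted p = 0.20). Without control MO ICM replicate 1 it was -1.87 (adjusted p = 0.028) and -2.33 (adjusted p = 0.014). In TE it was -1.63 (adjusted p = 0.19) and -1.95 (adjusted p = 0.098), and in a fit of the TE libraries alone these had adjusted p of 0.042 and 0.018.

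The other 7 genes were not called with either MO. Ruvbl1 was at 238 and 270.4 TPM in control MO ICM, 300.4 and 309 TPM with Max MO (0.26, interval -0.12 to 0.64) and 254 and 278 TPM with Mcrs1 MO (0.07, interval -0.31 to 0.45). Ruvbl2 was at 458 and 581 TPM, 617 and 917 TPM (0.54, adjusted p = 0.072) and 539 and 505 TPM (0.01). With control MO ICM replicate 1 left out the Ruvbl1 changes were 0.17 and -0.02 and the Ruvbl2 changes 0.37 and -0.16, none called. The interval of the Ruvbl1 change thus lay within 2-fold for both MOs. Ino80c was at 59.2 to 116 TPM over the 6 ICM libraries and Ino80e at 126 to 245 TPM, with log2 changes from -0.48 to -0.04. Actr8 ranged from 38.9 to 93.4 TPM in ICM. Ino80b and Actr5 had at least 1 library under 1 TPM with control MO and with Max MO in ICM, and the standard errors of their changes were 1.27 and 0.82, so changes of 2-fold in either direction lay within their intervals.

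Transcript length moved with the MO comparisons. Over all genes, in 5 equal classes of longest coding transcript from the shortest to the longest, the median log2 change in ICM ran from 0.80 to -1.09 with Max MO and from 0.51 to -0.59 with Mcrs1 MO, and in TE from 0.35 to -0.62 and from 0.35 to -0.82. Ino80 (6354 nt), Yy1 (6178 nt) and Nfrkb (5161 nt) were the 3 longest of the 10, and the others had 1503 to 2498 nt. With the trend on length taken out, the Ino80 change with Max MO was -1.84 (adjusted p = 0.070), the Yy1 change -0.46 (adjusted p = 0.52) and the Ino80 change with Mcrs1 MO -1.65 (adjusted p = 0.12), none called. The Ino80 change with Max MO lay below the lower quartile of the longest class (-1.77), and the Yy1 change of -1.48 lay within its quartiles (-1.77 to -0.32). Reference genes made up 85.5% to 90.3% of TPM in control MO libraries and 93.6% to 94.4% in the others, with no overlap. The part of length and of this percentage in the changes of Ino80 and Yy1 beyond these fits was not tested.

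**Figure D5:**
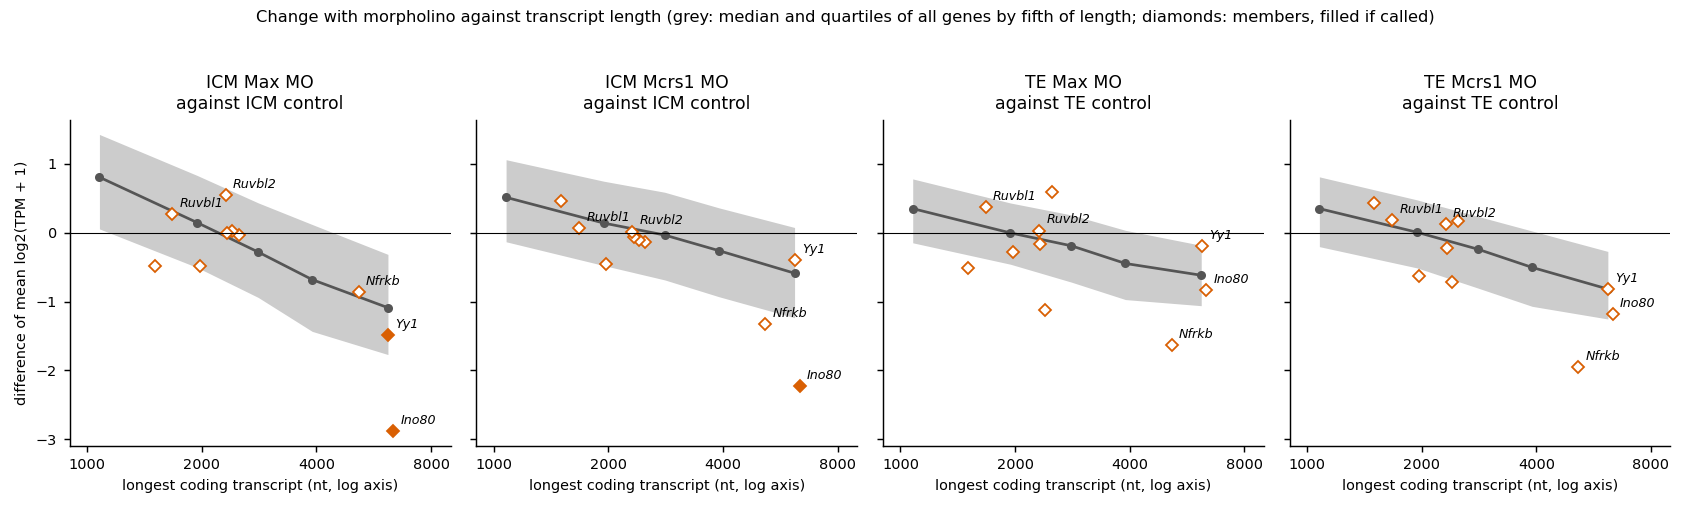
Log2 change with Max MO and Mcrs1 MO in ICM and TE (vertical axis) against longest coding transcript length in nucleotides (horizontal axis, log scale). The line joins the medians of all genes in 5 classes of length, the band spans the quartiles, and diamonds are the 10 genes, filled where called. Ino80, Yy1 and Nfrkb sit at the long end, where the medians of all genes were lowest.

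Of the 21 other genes of the complexes, all tested in the MO libraries, 3 were higher and 4 lower in ICM with Max MO (8.65% and 15.1% of all genes). H2afv was higher (1.19, adjusted p = 0.0053), as was Znhit1 (1.34, adjusted p = 0.014), and Ep400, the motor of TIP60-p400, was lower (-2.36, adjusted p = 0.0089), as was Ino80d (-2.0, adjusted p = 0.020). Without control MO ICM replicate 1 these were 1.40, 1.23, -3.05 and -2.12, all called, while Srcap (-1.67, adjusted p = 0.045) was not (-1.63, adjusted p = 0.070). The Ino80d call was lost without Max MO ICM replicate 1 or 2, that of Znhit1 without Max MO ICM replicate 1 and that of H2afv without control MO ICM replicate 2 (0.97, under 2-fold). The 4 lower genes, Ino80d, Ep400, Srcap and Trrap, had longest coding transcripts of 10654 to 13675 nt, and Znhit1 and H2afv had 1208 and 1633 nt. In ICM with Mcrs1 MO 2 were lower, Mcrs1 and Ino80d (-2.09, adjusted p = 0.034), against 5.21% of all genes. The Ino80d change was -2.21 without control MO ICM replicate 1, and its call was lost without any 1 of the other 3 libraries (adjusted p from 0.062 to 0.13). In TE with Mcrs1 MO 1 was lower (Mcrs1), against 3.31% of all genes, and with Max MO in TE 0 were called (2.5%).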

How the data were processed

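RNA was measured by Smart-seq2, with paired reads of 150 bases, in 68 libraries. Per the labels and the study's methods, the authors trimmed reads (cutadapt 1.16), aligned them to mm10 with HISAT2 and assembled transcripts with StringTie. The StringTie version and annotation are not given in the sources used here. The deposited tables hold TPM, treated here as a score since assembled loci alone sum to 1000000 and the reference genes are listed beside them. They also hold FPKM and coverage columns by the authors. Those columns served only to estimate the aligned bases per library, as a median of coverage over FPKM. Counts were not analysed here, and the depth behind a single value was not examined beyond these estimates. The samples' groups came from the labels.

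TPM was summed per gene name. The 3 fits (CC and SCNT, SCNT alone, MO) used limma 3.58.1 in R 4.3.3 (lmFit, eBayes with trend) on log2(TPM + 1), which understates changes of low genes, over genes with a mean of at least 1 TPM, with Benjamini-Hochberg adjustment over all genes. Called means adjusted p under 0.05 and at least 2-fold. All 10 genes were named in every comparison, and of the 21 related genes at most 4 called per comparison, by lowest adjusted p. The members and lists were chosen with earlier results of these data known. On simulated data with 200 changed genes, the L2C against E2C fit recovered 73% at a log2 change of 2 and 96% at 3 over 11867 genes, and the Mcrs1 MO ICM fit 34% and 64% over 11219 genes. No 2 libraries were identical (highest Pearson r 0.989). Transcript lengths were GENCODE vM21 longest coding transcripts, found for 95.7% of genes. Among SCNT comparisons, and judged by the lowest r of a pair, same-numbered libraries deviated together most clearly for 14 hpa against 6 hpa (0.142) and TE against ICM (0.131). Every pair was also positive for E2C against 14 hpa, L2C against E2C and 4C against L2C (lowest r 0.0146, 0.0186 and 0.0133). The mean r for E2C against 14 hpa was 0.197. The fit with a replicate block changed no call for 14 hpa against 6 hpa or TE against ICM. These r values cannot tell pairing by number from a split between replicates 1 to 3 and 4 to 6.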

Additional observations from a re-analysis of the deposited data

Results flagged for a closer look

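Among 90 sets of values (10 genes in 9 SCNT groups), 8 (8.89%) had a highest library whose gap to the next was beyond Dixon's 95% limit, and none a lowest library. For normally distributed values about 1 in 20 sets would be flagged. The limit was applied to untransformed TPM, for which that rate need not hold, so an excess over it cannot be read from this count. Yy1 at 6 hpa was 3.14 TPM in replicate 1 against 1.04 TPM in the next library. Ino80c at 14 hpa was 6.33 TPM in replicate 4 against 3.97 TPM. Actr8 at L2C was 12.4 TPM in replicate 4 against 5.2 TPM. Ino80b at 4C was 13.1 TPM in replicate 4 against 0.312 TPM. Nfrkb in morulae was 11.0 TPM in replicate 2 against 5.11 TPM. In ICM, Ino80 was 15.4 TPM in replicate 2 against 3.29 TPM, Ino80b was 3.59 TPM in replicate 4 against 0.165 TPM and Nfrkb was 10.4 TPM in replicate 3 against 1.69 TPM. The 3 ICM values came from 3 different libraries, 2 of them among the replicates with few genes detected.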

How the results depend on the processing

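None of the calls of the 10 genes changed sign under any alternative: 230 of 279 alternative values and 245 of 292 with 1 library left out kept the call. The number called of the 10 genes moved by over 1.5 times as follows, with the share of all genes called in the same fit in brackets. With no filter on low values it was 1 at 4C against L2C (19.3%), 1 at ICM against morula (10.8%) and 0 with Mcrs1 MO in ICM (3.67%). With quantile normalization it was 1 at E2C against 14 hpa (9.56%), 4 at 4C (39.0%), 1 at morula against 8C (11.9%) and 1 at ICM (20.8%). In ICM it was then 1 with Max MO (19.2%) and 0 with Mcrs1 MO (8.38%). Removal of the length trend was an alternative chosen after seeing the data. It gave 4 at 4C (34.4%), 1 at morula (10.1%), 1 at ICM (21.7%) and 1 at TE against morula (20.4%). In ICM it gave 0 with Max MO (8.87%) and 0 with Mcrs1 MO (4.87%). Rescaling gave 0 at 4C (43.2%), and a minimum mean of 5 TPM gave 1 at TE against morula (24.0%). A pseudocount of 0.1 gave 0 with Mcrs1 MO in ICM (8.46%). Replicates 1 to 3 alone gave 3 at L2C (22.2%), 1 at 4C (24.7%) and 1 at TE against ICM (8.39%). Replicates 4 to 6 alone gave 3 at 14 hpa (17.7%), 1 at E2C (6.11%) and 4 at morula (18.0%). Replicates 4 to 6 against 1 to 3 as a covariate, also added after seeing the data, gave 2 at morula (14.4%). Fits of the 2 groups alone gave 1 at 4C (34.9%) and 3 at morula (21.6%). Fits of 1 lineage gave 1 with Max MO (9.42%) and 0 with Mcrs1 MO (0.0176%) in ICM. In TE they gave 1 with Max MO (9.54%) and 1 with Mcrs1 MO (14.3%). The cause of each was not tested. The Anp32e change from morula to ICM was -1.74 and reversed to 0.80 with replicates 4 to 6 alone.

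With the replicate number as a block the count at morula was 3 (Actr5, Ino80e and Ruvbl2, against 14.4% of all genes). It was 7 for 6 hpa against CC (Ino80 added, 1.14, against 63.2%). It was 3 for ICM against CC (38.3%), where Ino80b took the place of Ruvbl2 (0.93). The number did not pair libraries there. For 14 hpa against 6 hpa and TE against ICM, same-numbered libraries had a mean r of 0.265 and 0.185. Libraries of the same set (1 to 3 or 4 to 6) but another number had a mean r of 0.234 and 0.187.

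With 1 library left out, the number called ranged from 5 to 6 at 6 hpa and from 2 to 6 at ICM, both against CC, 1 to 2 at 14 hpa, 0 to 0 at E2C, 5 to 6 at L2C, 0 to 2 at 4C, 1 to 5 at 8C, 0 to 2 at morula, 1 to 3 at ICM and 2 to 3 at TE against morula, and 0 to 0 at TE against ICM. It ranged from 1 to 3 with Max MO and 0 to 1 with Mcrs1 MO in ICM, and was 0 in TE with either MO, between control lineages and for both differences in response. Shares of all genes called in these fits are not given here. In the MO groups a library left alone was assumed to vary like the other groups. The 2 libraries per MO group and the lack of counts limit the precision.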
